A study of Danio rerio with 5 samples.

Results

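Mitochondrial ribosomal protein genes encode the protein part of the mitoribosome. They were followed here in border zone cardiomyocytes, the heart muscle cells beside an injury, of the zebrafish heart at 1, 3 and 7 days post-cryo-injury (dpci). The members were chosen by name alone, as the gene rows whose upper-case symbol starts with MRPL or MRPS and a digit. This gave 64 of the 17997 gene IDs in the tables, 43 of the large subunit and 21 of the small subunit (with MRPS18A, despite its name, in the large one). The name table holds 75 such symbols, and 11 of them had no row (MRPL3, MRPL15, MRPL22, MRPL33, mrpl53, MRPS2, MRPS7, MRPS15, MRPS16, MRPS24 and MRPS30). All groups were fish of the TL background that carried a fluorescent nppa:mCitrine reporter, and all had the tip of the ventricle frozen with a cold copper probe. No uninjured group was analysed here. Cells were sorted on the reporter, which marks the border zone because nppa is switched on there, and placed 1 per well. SORT-seq, a plate form of CEL-Seq2, then counted transcripts by unique molecular identifiers (UMIs). There was 1 plate of 1 dpci, 1 plate of 3 dpci and 3 plates of 7 dpci. Each time point drew on several hearts. The labels do not tie fish to plates, so p-values measure the spread between the 7 dpci plates, which may be technical.

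The mitoribosome translates the few proteins that mitochondrial DNA encodes, all of them subunits of the oxidative phosphorylation (OXPHOS) complexes, while every other OXPHOS subunit is a nuclear gene product made on cytosolic ribosomes. Its proteins are nuclear encoded and imported. The small subunit holds the mRNA and decodes it, and the large subunit joins the amino acids and passes the chain to the inner membrane. Some members descend from bacterial ribosomal proteins (bacterial-type below) and others were added in mitochondria (mitochondria-specific). Adult heart muscle is rich in mitochondria and depends on OXPHOS. The study asked how energy metabolism changes in border zone cells during regeneration, and the comparisons below ask how the genes of the mitoribosome behaved over the same days.

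Wells with at least 500 UMIs were kept as cells, 283 at 1 dpci, 268 at 3 dpci and 169 to 230 on the plates of 7 dpci. A cell of the 1 dpci plate had a median of 2700 UMIs and one of the 3 dpci plate 2178, and for 7 dpci the medians were 1023 on plate 1, 2274 on plate 2 and 2203 on plate 3, so plate 1 was the shallowest. Cardiomyocyte markers took 102904 UMIs per 1000000 at 1 dpci, 139029 at 3 dpci and 204259 to 221223 at 7 dpci, and all 16 of those in the tables had UMIs. Not every marker of this list followed its sum. Without scaling for depth, nppa had 1371, 674, 103, 196 and 188 UMIs in the order of the plates. In the same order nppb had 2358, 522, 29, 116 and 104, and MYL7 had 39797, 34215, 25200, 56074 and 47592. Markers of 8 other cell types were lower in sum at 7 dpci, though not for every type. Of 57 such markers, 53 were seen on the 1 dpci plate, 47 on the 3 dpci plate and 22 to 26 on those of 7 dpci, with a summed level of 5476, 3403 and 405 to 1324 UMIs per 1000000. On all 3 plates of 7 dpci 19 of them were at 0, among them the endothelial markers TIE1 and FLI1, the epicardial marker TCF21 and the macrophage marker c1qa. Several of the 19 were also near 0 on the 1 and 3 dpci plates, such as npsn (1 and 0 UMIs), lyz (2 and 0) and hbaa2 (0 and 0). Other macrophage markers were still seen at 7 dpci, as cd74a with 2, 65.5 and 47.2 UMIs. The macrophage list took 1635 UMIs per 1000000 at 1 dpci, 1214 at 3 dpci and 191, 156 and 195 at 7 dpci. The markers of smooth muscle and mural cells did not follow the sum, with 452 UMIs per 1000000 for 1 dpci, 280 for 3 dpci and 977, 207 and 337 for the plates of 7 dpci, and acta2 of this list had 10, 12, 136, 98 and 117 UMIs. Lymphocyte markers were also highest on plate 1 of 7 dpci. Cells whose UMIs of these markers exceeded 0.1 times their cardiomyocyte marker UMIs numbered 36, 22, 3, 2 and 3 in the order of the plates, and their part of the UMIs was 34.0% for 1 dpci, 18.8% for 3 dpci and 1.16% to 4.79% for 7 dpci. Between 0 and 8 cells of a plate lay near this limit. The member share, the ratios, the medians and the leading fold changes are also given without these cells. The names of the deposited tables carry 1 sequencing run code for the plates of 1 and 3 dpci, another for plate 1 of 7 dpci and another for plates 2 and 3, so run and time point cannot be told apart between 7 dpci and the earlier days.

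All 64 members had UMIs on every plate, 14139 in total. Their levels are given in UMIs per 1000000 (CPM) of the effective library, which is the plate total after TMM scaling. UMIs count transcripts from their end, so no scaling per length was applied. The 63 members with a mean of at least 10 CPM over the plates were tested, and MRPS22 of the small subunit was not. Mean levels ran from 14.5 to 148 CPM with a median of 58.9 CPM, against a median of 26.4 CPM over all genes tested. The 10 members with most UMIs held 29.4% of the member UMIs, so no single protein gene led the group.

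Among the 10 members of highest mean level, 9 were proteins of the large subunit. The bacterial-type protein mrpl34 (ENSDARG00000092954) had levels of 76.5 CPM at 1 dpci, 64.2 CPM at 3 dpci and 113, 275 and 209 CPM on the plates of 7 dpci (mean 199 ± 81.5, SD, n = 3). MRPL28 (ENSDARG00000057805), also bacterial-type, had 114 CPM at 1 dpci, 111 CPM at 3 dpci and 148, 168 and 173 CPM at 7 dpci. MRPL23 (ENSDARG00000045696), whose bacterial counterpart lies at the exit of the peptide tunnel, had 80.7, 66.2, 167, 151 and 139.5 CPM in the same order. In these 3 genes each 7 dpci plate was above both earlier plates. MRPL4 (ENSDARG00000058824), which also reaches the tunnel in bacteria, had 68.6 CPM at 1 dpci, 71.3 CPM at 3 dpci and 117, 186 and 143 CPM at 7 dpci. For mrpl36 (ENSDARG00000070607), a small zinc-binding protein in bacteria, the levels were 57.8, 66.2, 101, 158 and 106 CPM. MRPL32 (ENSDARG00000060489), which a protease must trim before it joins the ribosome in yeast and mouse, had 53.0, 36.7, 175, 122 and 101 CPM. In these 3 genes too each 7 dpci plate was above both earlier plates. The 1 dpci plate was under 3 dpci in MRPL4 and mrpl36 and above it in MRPL32. On this scale 25.5% of all genes tested were higher on every 7 dpci plate than at 1 dpci, and 23.4% than at 3 dpci. The order did not hold for any gene of this paragraph without the cells with markers of other types, scaled by plate totals in place of TMM. MRPL28 then had 214, 157, 141, 133 and 149 CPM of the plate total, so each 7 dpci plate was under both earlier plates. Scaled this way, 57.4% of all genes in those cells were lower on every 7 dpci plate than at 1 dpci. Against 3 dpci 49.8% were.

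On the CPM scale, with all cells, the other 4 of the 10 overlapped. MRPS34 (ENSDARG00000057910), a mitochondria-specific protein and the only small subunit member among the 10, had 99.9 CPM at 1 dpci, 80.5 CPM at 3 dpci and 93.4, 147 and 136 CPM at 7 dpci. MRPL43 (ENSDARG00000076334) had 98.1, 69.3, 136, 95.8 and 130.3 CPM, with 1 of its 7 dpci plates under the 1 dpci plate. MRPL2 (ENSDARG00000062568), whose bacterial counterpart sits next to the peptidyl transferase centre, had 102, 78.4, 77.8, 128 and 114 CPM, so plate 1 of 7 dpci lay under both earlier plates. MRPL12 (ENSDARG00000038768), the counterpart of the bacterial stalk protein that recruits translation factors, had 105 CPM at 1 dpci, 88.6 CPM at 3 dpci and 101, 97.5 and 88.1 CPM at 7 dpci. Its time points covered one narrow range on this scale only. Without the cells with markers of other types it had 171, 124, 92.4, 77.8 and 73.5 CPM of the plate total. Each 7 dpci plate was then under both earlier plates. The same held for MRPS34 and MRPL2, while plates 1 and 3 of 7 dpci were above 3 dpci in MRPL43. In those cells and with that scaling, 57.4% of all genes were lower on every 7 dpci plate than at 1 dpci. For 3 dpci the share was 49.8%.

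**Figure D1:**
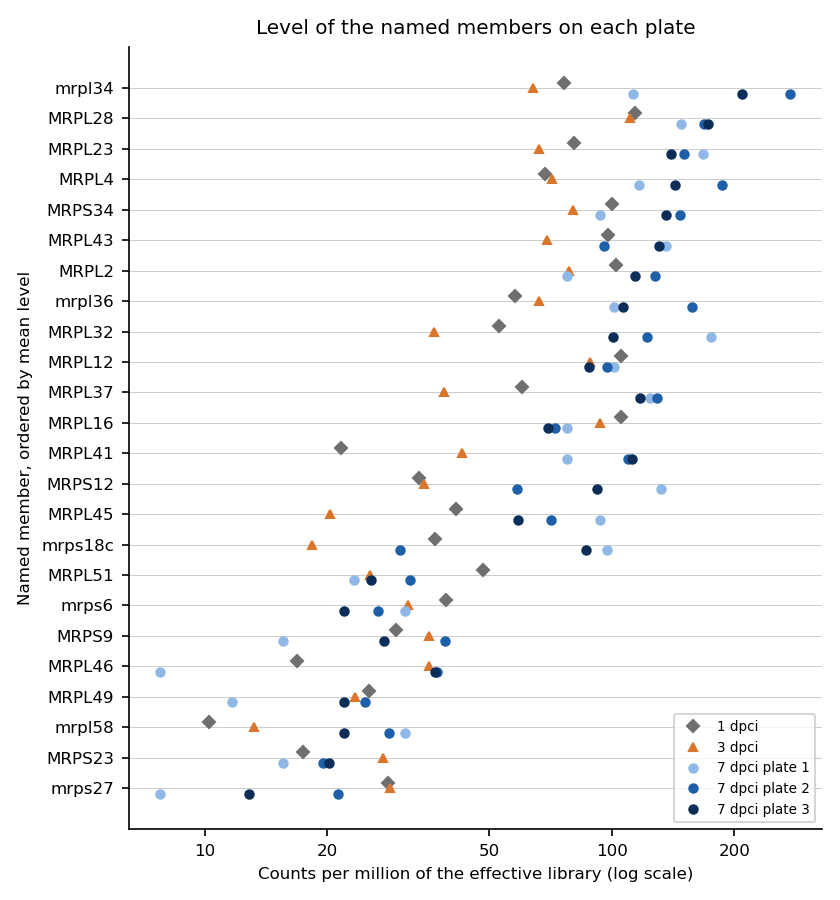
Level of the 24 named members on each of the 5 plates, in UMIs per 1000000 (CPM) of the effective library on a log axis, ordered by mean level over the plates. mrpl34 reached 275 CPM on plate 2 of 7 dpci, while mrps27 and MRPL46 were at 7.78 CPM on plate 1 of 7 dpci, the shallowest plate.

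Taken as a share of the UMIs of all cells, the members lay between 0.347% and 0.413%. Their share was 0.413% for 1 dpci (95% exact Clopper-Pearson interval 0.402% to 0.424%), 0.347% for 3 dpci (0.334% to 0.360%), and 0.373%, 0.388% and 0.377% on the plates of 7 dpci (mean 0.379% ± 0.008, SD, n = 3). Such intervals cover counting error only. The share was therefore highest at 1 dpci and lowest at 3 dpci, with the 7 dpci plates between them. In the cells with markers of other types the members took less, 0.163% for 1 dpci and 0.132% for 3 dpci. Without these cells the share was 0.541% at 1 dpci (0.526% to 0.558%), 0.397% at 3 dpci (0.382% to 0.413%) and 0.385%, 0.391% and 0.388% at 7 dpci (mean 0.388% ± 0.003, SD, n = 3). The 3 dpci interval then contained all 3 plates of 7 dpci, so these cells showed no order between 3 and 7 dpci. The share at 1 dpci was above that of every later plate in both sets of cells. A share cannot tell fewer member transcripts from more transcripts of other genes, and with 1 plate at 1 and at 3 dpci these differences were not tested.

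**Figure D2:**
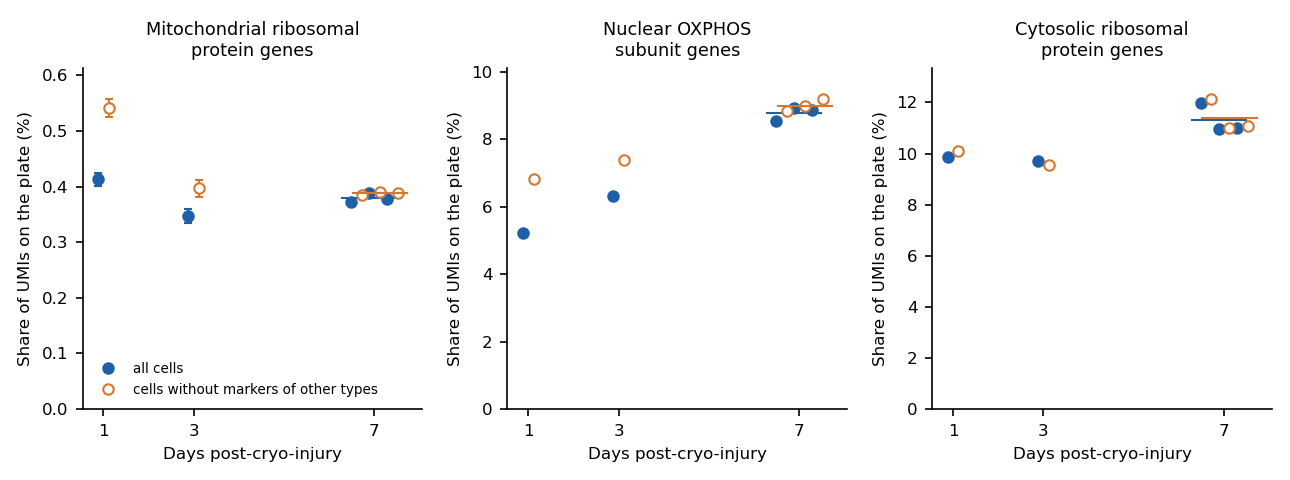
Share of a plate's UMIs, in percent, taken by mitochondrial ribosomal protein genes, nuclear OXPHOS subunit genes and cytosolic ribosomal protein genes, against days post-cryo-injury. Filled points are all cells and open points the cells without markers of other types, bars on the lone plates are 95% exact intervals for counting error, and horizontal lines are the means of the 3 plates of 7 dpci. The member share of all cells was 0.413%, 0.347% and 0.379%, while the OXPHOS share was 5.21%, 6.31% and 8.78%.

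The genes of nuclear-encoded OXPHOS subunits moved differently. The 79 nuclear OXPHOS subunit genes held a UMI share of 5.21% for 1 dpci and 6.31% for 3 dpci, and of 8.53%, 8.92% and 8.87% for the plates of 7 dpci. Their UMIs per member UMI were 12.6 at 1 dpci (exact counting interval 12.3 to 13.0), 18.2 for 3 dpci (17.5 to 18.9) and 22.9, 23.0 and 23.5 on the plates of 7 dpci (mean 23.1 ± 0.34, SD, n = 3). This ratio needs no library scaling, and the plates of 7 dpci lay close together and apart from both earlier plates. It was 12.6, 18.6 and 23.2 ± 0.44 without the cells with markers of other types. Over the 5 choices of cells tried, the ratio ran from 12.5 to 12.8 at 1 dpci, from 18.2 to 19.6 at 3 dpci and from 23.0 to 23.6 for the 7 dpci mean. The 68 cytosolic ribosomal protein genes had 23.9 UMIs per member UMI on the 1 dpci plate, 28.0 on the 3 dpci plate and a 7 dpci mean of 29.8 ± 2.01 (SD, n = 3). Without the cells with markers of other types these values were 18.6, 24.0 and 29.4 ± 1.84. Both ratios are descriptions and were not tested.

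**Figure D3:**
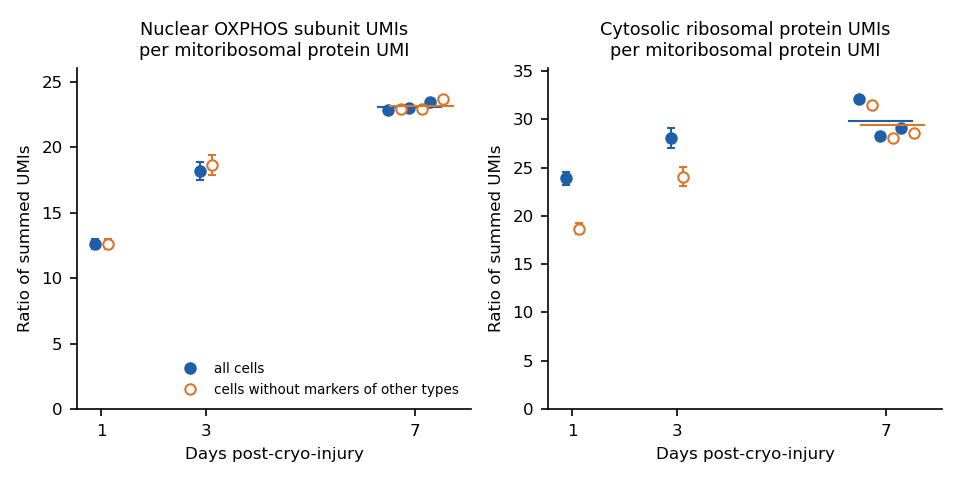
Summed UMIs of nuclear OXPHOS subunit genes (left) and of cytosolic ribosomal protein genes (right) per UMI of mitochondrial ribosomal protein genes, against days post-cryo-injury. Filled points are all cells, open points the cells without markers of other types, bars on the lone plates are 95% exact counting intervals and lines the 7 dpci means. The OXPHOS ratio went from 12.6 at 1 dpci to 18.2 at 3 dpci and 23.1 at 7 dpci, and the choice of cells hardly moved it.

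Between 1 and 7 dpci a single member passed the test. MRPL41 (ENSDARG00000002264), a mitochondria-specific protein of the large subunit, rested on 36 UMIs for 1 dpci, 42 for 3 dpci and 20, 62 and 61 for the plates of 7 dpci. Its level was 21.7 CPM at 1 dpci, 42.8 CPM at 3 dpci and 77.8, 110.0 and 112 CPM at 7 dpci (mean 99.9 ± 19.2, SD, n = 3). Every plate of 7 dpci was thus above the 3 dpci plate, which was above the 1 dpci plate. The log2 fold change of 7 against 1 dpci was 2.21 ± 0.56 (SE), with an adjusted p of 0.0492 (edgeR, quasi-likelihood F test, Benjamini-Hochberg over 5624 genes). It was the 1 member called of 63, where 7.54% of all genes tested were called, 2.84% of them as higher and 4.69% as lower. The call was close to its limit. With 1 plate of 7 dpci left out, the edgeR adjusted p of MRPL41 was 0.385 (plate 2), 0.127 (plate 3) or 0.000359 (plate 1), and without the cells with markers of other types it was 0.112 at a log2 fold change of 1.94. In those cells MRPL41 took 33.0 UMIs per 1000000 at 1 dpci, 64.4 at 3 dpci and 74.0, 87.7 and 97.5 at 7 dpci, with the same order of groups.

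With MRPL41, 53 tested members (84.1%) had a fold change above 0 and 10 below it, where 46.1% of all genes were above 0. Without the cells with markers of other types 32 members (50.8%) were above 0, where 45.8% of all genes were. With library totals and all cells 27 members (42.9%) were, where 24.4% of all genes were. At an unadjusted p under 0.05, 5 members (7.94%) were higher at 7 dpci and 0 lower, where 9.19% of all genes were higher and 12.8% lower. The largest changes after MRPL41 were those of MRPS12, mrpl34, mrpl58 and MRPL32. MRPS12 (ENSDARG00000089836), whose bacterial counterpart sits at the decoding centre of the small subunit, had 33.7 CPM at 1 dpci, 34.6 CPM at 3 dpci and 132, 58.5 and 91.8 CPM at 7 dpci. Its log2 fold change was 1.45 ± 0.61, adjusted p 0.206 in edgeR. That of mrpl34 was 1.39 ± 0.58, adjusted p 0.200, and that of MRPL32 was 1.31 ± 0.53, adjusted p 0.189. The remaining one, mrpl58 (ENSDARG00000078835), a peptidyl-tRNA hydrolase that became part of the large subunit, rested on 8 to 17 UMIs per plate and had 10.2, 13.2, 31.1, 28.4 and 22.0 CPM. On the CPM scale all 4 were above their 1 dpci level on each plate of 7 dpci without passing the test. They were picked for their fold changes, and 25.5% of all genes tested had this order. Their log2 fold changes without the cells with markers of other types were 0.98 (MRPS12), 0.85 (mrpl34), 0.97 (mrpl58) and 0.86 (MRPL32). In those cells, scaled by plate totals, the order held for mrpl58 only, where 10.9% of all genes had it. Plate 2 of 7 dpci was under 1 dpci in MRPS12 (46.7 against 58.7 CPM of the plate total). So were plate 1 in mrpl34 (99.8 against 137) and plate 3 in MRPL32 (84.7 against 88.1).

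Of the 5 lowest fold changes none passed the test. The mitochondria-specific mrps27 (ENSDARG00000059234) of the small subunit, an RNA-binding protein, had 28.3 CPM at 1 dpci, 28.5 CPM at 3 dpci and 7.78, 21.3 and 12.9 CPM at 7 dpci, a log2 fold change of -0.95 ± 0.83. MRPL51 (ENSDARG00000041340) had 48.2, 25.5, 23.3, 31.9 and 25.7 CPM, so only the 1 dpci plate stood higher. MRPL16 (ENSDARG00000075325), bacterial-type and among the better counted with 175 UMIs at 1 dpci, had 105 CPM at 1 dpci, 93.7 CPM at 3 dpci and 77.8, 72.7 and 69.8 CPM at 7 dpci. Its groups did not overlap, yet its log2 fold change of -0.52 ± 0.44 had an adjusted p of 0.577 in edgeR. On the CPM scale 37.2% of all genes tested were lower on every 7 dpci plate than at 1 dpci, and 33.4% than at 3 dpci. The lowest 5 also held mrps6 (ENSDARG00000039543), with 39.1, 31.6, 31.1, 26.6 and 22.0 CPM, and MRPL49 (ENSDARG00000075422), with 25.3, 23.4, 11.7, 24.8 and 22.0 CPM. Without the cells with markers of other types MRPL16 had a log2 fold change of -1.03 ± 0.38, MRPL51 -1.23 ± 0.55 and MRPL49 -0.90 ± 0.68. In those cells 1 member was lower and 1 higher at an unadjusted p under 0.05 in edgeR. Of all genes tested there, 5.93% were lower and 8.13% higher.

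**Figure D4:**
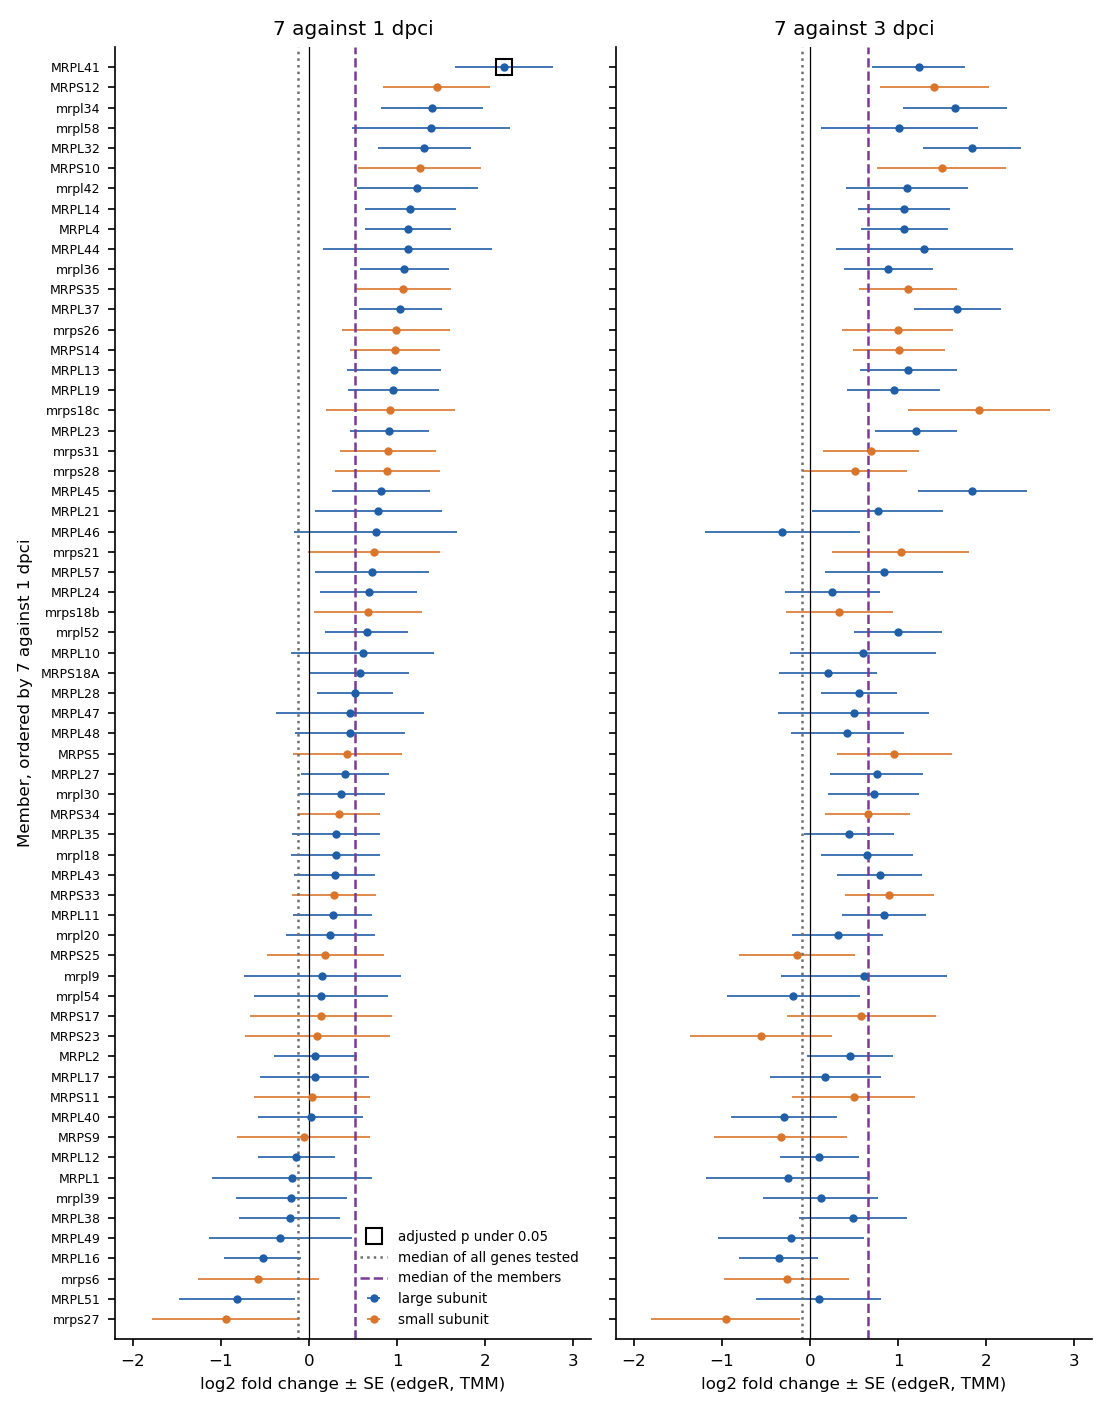
log2 fold change with its SE for the 63 tested members, 7 against 1 dpci (left) and 7 against 3 dpci (right), in the order of the left panel and coloured by subunit. The dashed line is the median of the members (0.52 and 0.65), the dotted line the median of all genes tested (-0.13 and -0.09), and the square marks MRPL41, the 1 call.

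The median log2 fold change of the members was 0.52 for 7 against 1 dpci, beside -0.13 over all genes tested, 1.39 over 76 nuclear OXPHOS subunit genes and 0.89 over 68 cytosolic ribosomal protein genes. Of these, 38 OXPHOS and 12 cytosolic ribosomal protein genes were called as higher and 0 as lower. These calls were 7 and 0 without the cells with markers of other types, with medians of 0.87 and 0.72, and with library totals they were 13 and 1. The median SE of a gene was 0.35 and 0.28 in these lists and 0.59 in the members, so a fold change was measured less precisely in the members. On the CPM scale 32 of 63 members (50.8%) were higher on all 3 plates of 7 dpci than at 1 dpci, where 25.5% of all genes were, and 6 (9.52%) were lower on all 3, where 37.2% were. The direction of a member depends on the scaling. With library totals in place of TMM the median of all genes was -0.80 and that of the members -0.16, and 16 members were higher and 25 lower on all 3 plates, where 13.1% and 59.4% of all genes were. Relative to the median of all genes the members stood 0.65 higher with TMM and 0.64 higher with library totals. Over 14 settings of the analysis this difference ran from 0.18 (without the cells with markers of other types) to 0.85 (no filter on low counts). The members minus the OXPHOS genes ran from -0.95 to -0.62.

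Between 3 and 7 dpci 0 of 63 members were called in edgeR, where 1.9% of all genes tested were (0.676% as higher and 1.23% as lower), and 0 were called in DESeq2. At an unadjusted p under 0.05 there were 7 higher members (11.1%) and 0 lower, where 6.42% of all genes were higher and 8.87% lower. This comparison shares its 7 dpci plates with the one above. The lowest adjusted p was that of MRPL37 (ENSDARG00000062916), a mitochondria-specific large subunit protein counted with 100 UMIs for 1 dpci, 38 for 3 dpci and 32, 73 and 64 for 7 dpci. Its level was 60.2 CPM at 1 dpci, 38.7 CPM at 3 dpci and 124, 129 and 117 CPM at 7 dpci (mean 124 ± 6.02, SD, n = 3). On this scale, with all cells, the 7 dpci plates lay close together and well above the others. The log2 fold change against 3 dpci was 1.67 ± 0.50, adjusted p 0.143 in edgeR. MRPL32 had a log2 fold change of 1.84 ± 0.56, adjusted p 0.152, and mrpl34 one of 1.65 ± 0.59, adjusted p 0.218. MRPL45 (ENSDARG00000044942), which in mammals lines the tunnel exit and anchors the particle to the inner membrane, had 41.5 CPM at 1 dpci, 20.4 CPM at 3 dpci and 93.4, 70.9 and 58.7 CPM at 7 dpci. Its log2 fold change against 3 dpci was 1.84 ± 0.62, adjusted p 0.185 in edgeR. The bacterial-type small subunit protein mrps18c (ENSDARG00000069624) had the highest fold change, 1.92 ± 0.81, but its 7 dpci plates spread from 30.1 to 97.3 CPM, all above the 3 dpci level of 18.3 CPM. With the cells with markers of other types left out, MRPL37 had 1.55 ± 0.45, MRPL32 1.57 ± 0.51 and mrps18c 1.65 ± 0.79. MRPL37 then had 105, 48.7, 118, 103 and 94.3 CPM of the plate total. Plates 2 and 3 of 7 dpci were thus under its 1 dpci plate.

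The lowest fold changes against 3 dpci, none of them past the test, belonged to mrps27 (-0.96 ± 0.85), MRPS23 (-0.56 ± 0.81), MRPL16 (-0.36 ± 0.45), MRPS9 (-0.33 ± 0.76) and MRPL46 (-0.32 ± 0.88). MRPS23 (ENSDARG00000033973), mitochondria-specific, had 17.5, 27.5, 15.6, 19.5 and 20.2 CPM. MRPS9 (ENSDARG00000061505), whose bacterial counterpart touches the tRNA in the small subunit, had 29.5, 35.7, 15.6, 39.0 and 27.5 CPM, so its groups overlapped. The median over the members was 0.65, beside -0.09 over all genes, 1.13 over the OXPHOS genes and 0.83 over the cytosolic ribosomal protein genes. On the CPM scale 36 members (57.1%) were higher on all 3 plates of 7 dpci than at 3 dpci, where 23.4% of all genes were, and 6 lower, where 33.4% were. With library totals 22 members were higher and 18 lower, where 11.5% and 56.3% of all genes were, and the members' median was 0.06 against -0.66 for all genes. Without the cells with markers of other types the members' median was 0.39 against -0.06 for all genes.

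The number of calls moved with each plate of 7 dpci. Without plate 1, 7 members (11.1%) were called for 7 against 1 dpci and 6 (9.52%) for 7 against 3 dpci, all higher at 7 dpci. Of the 5810 genes tested in this fit, 1407 (24.2%) and 872 (15.0%) were called in either direction, 634 and 400 of them as higher at 7 dpci. The 6 were mrpl34, MRPL37, MRPL32, MRPL4, MRPL41 and MRPS35, and the 7 were these and mrpl36. Of them MRPS35 (ENSDARG00000038456), a mitochondria-specific protein of the small subunit, is named only because it was called here, after its values were seen, and had 45.2 CPM at 1 dpci, 43.8 CPM at 3 dpci and a 7 dpci mean of 93.4 ± 28.2 CPM (SD, n = 3). The spread in this fit comes from plates 2 and 3 alone, which share a run code. Without plate 2, 0 members and 0 of all genes were called in edgeR in either comparison. At an unadjusted p under 0.05, 2 members (3.17%) were higher against 1 dpci and 4 (6.35%) against 3 dpci, with 0 lower. Of all genes, 4.93% were higher and 7.96% lower against 1 dpci, and 3.03% and 4.83% against 3 dpci. Without plate 3 there were 0 members called, while 418 (7.10%) and 177 (3.00%) of all genes were. Again 2 and 4 members were higher and 0 lower at an unadjusted p under 0.05. The shares of all genes were 5.87% higher and 11.3% lower against 1 dpci, and 3.79% and 8.06% against 3 dpci.

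**Figure D5:**
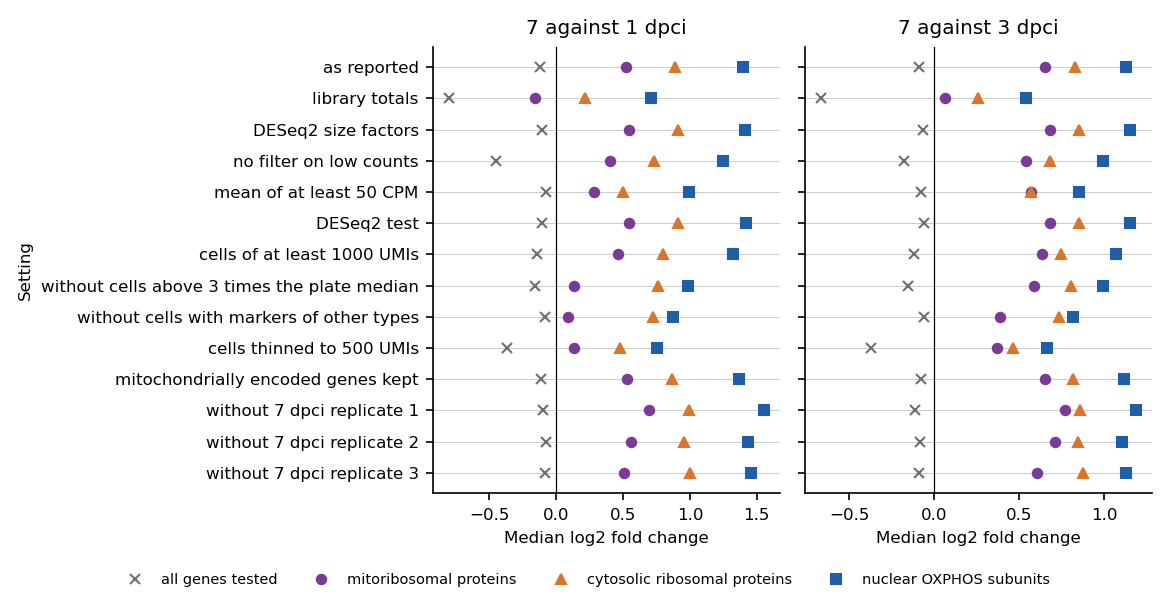
Median log2 fold change over all genes tested, over mitochondrial ribosomal protein genes, over cytosolic ribosomal protein genes and over nuclear OXPHOS subunit genes, for 7 against 1 dpci (left) and 7 against 3 dpci (right), under each of 14 settings of the analysis (rows). The members lay above all genes and below the OXPHOS genes in every row, and the median of the members was below 0 only for 7 against 1 dpci with library totals (-0.16).

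Between 1 and 3 dpci there is 1 plate on each side, so ratios are given with an exact 95% interval for counting error and no test. Both plates carry the same run code. On the TMM scale 2 of 63 members had an interval above 0 and 8 an interval below 0, where 17.9% and 21.3% of all genes tested did. MRPL46 (ENSDARG00000016307), mitochondria-specific, had the highest log2 ratio, 1.08 (0.32 to 1.85), from 28 UMIs at 1 dpci and 35 at 3 dpci. MRPL41 followed with 0.98 (0.30 to 1.67), and then MRPS23 with 0.66 (-0.16 to 1.46), an interval that contains 0. The lowest ratios were those of MRPL45 (-1.03, -1.82 to -0.29), mrps18c (-1.002, -1.85 to -0.22) and MRPL51 (-0.92, -1.63 to -0.26). These members were picked from both ends of the ratios. The median of all members was -0.11, beside -0.07 over all genes. Without the cells with markers of other types, and with library totals, 2 members had an interval above 0 and 23 an interval below 0 (36.5%), where 11% and 18.6% of all genes did. In the same cells 4 members were higher and 36 lower on all 3 plates of 7 dpci than at 1 dpci, where 10.9% and 57.4% of all genes were, and against 3 dpci 15 were higher and 25 lower, where 12.3% and 49.8% were.

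Large and small subunit genes had close medians. The large subunit genes had 2.87 UMIs for each UMI of the small subunit genes on the 1 dpci plate (counting interval 2.70 to 3.06), 2.80 for 3 dpci (2.57 to 3.05) and 2.30, 3.13 and 2.97 on the plates of 7 dpci (mean 2.80 ± 0.44, SD, n = 3). The spread between the 7 dpci plates was thus wider than the difference between time points. For 7 against 1 dpci the median log2 fold change was 0.52 over 43 large subunit genes and 0.55 over 20 small subunit genes. Against 3 dpci the medians were 0.65 and 0.67. Genes of bacterial-type proteins (36 tested) had medians of 0.49 and 0.68 and those of mitochondria-specific proteins (27 tested) 0.58 and 0.65, in the same order of comparisons. The medians without the cells with markers of other types were 0.089 (large), 0.16 (small), -0.040 (bacterial-type) and 0.10 (mitochondria-specific) for 7 against 1 dpci, and 0.39, 0.43, 0.41 and 0.33 for 7 against 3 dpci. These differences between the classes were not tested.

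At 7 dpci the plates themselves differed by more than counting in part of the members. The coefficient of variation of a member over the 3 plates had a median of 20.8% and ran from 4.80% to 72.0%, and the mean chi-square per degree of freedom was 2.35, where counting error alone gives about 1. Plate 1 held the lowest level of 38 members, plate 3 of 18 and plate 2 of 7. Plate 1 also held the highest level of 21 members.

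In single cells the members were sparse. The median cell held 14 member UMIs on the 1 dpci plate, 7 on the 3 dpci plate and 4, 8 and 7 on the plates of 7 dpci, from 10, 6, 3, 6 and 5 different members. Because depth differed, cells of at least 1000 UMIs were thinned to 1000 UMIs, which left out 43, 57, 79, 41 and 40 cells. The thinned cells held on average 5.10 member UMIs at 1 dpci, 3.60 at 3 dpci and 3.67, 3.84 and 3.65 at 7 dpci, so the 1 dpci plate stood apart from the other 4. At least 1 member UMI was found in 95.8% of the thinned cells at 1 dpci (92.5% to 98.0%), 92.9% at 3 dpci (88.5% to 95.97%) and 93.3%, 94.2% and 93.0% at 7 dpci, against 97.5%, 98.5%, 91.7%, 97.4% and 96.9% before thinning. The thinned cells with markers of other types held 1.65 member UMIs on average at 1 dpci (34 cells) and 1.09 at 3 dpci (22 cells), and the other cells 5.67 and 3.89.

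The rest of the mitochondrial gene expression pathway was taken from lists of factors and not from how they moved, and 0 genes of these lists were called in edgeR in either comparison. At an unadjusted p under 0.05, 2 were higher against 1 dpci (OXA1L and PPARGC1A), 3 were higher against 3 dpci (OXA1L, C1QBP and grsf1) and 0 were lower. Of all genes tested, 9.19% were higher and 12.8% lower against 1 dpci, and 6.42% and 8.87% against 3 dpci. The lists had 9 assembly factors, 5 translation factors, 3 tRNA charging genes and 6 transcription genes tested. Another list held mitoribosomal proteins under other names and the insertase OXA1L, and its 5 genes in the tables were all tested. OXA1L (ENSDARG00000069313), which takes newly made proteins from the ribosome into the inner membrane, had 45.2 CPM at 1 dpci, 23.4 CPM at 3 dpci and 152, 124 and 110.1 CPM at 7 dpci. In edgeR the comparison with 1 dpci gave a log2 fold change of 1.498 ± 0.50 and an adjusted p of 0.114, that with 3 dpci 2.44 ± 0.55 and 0.0743. DESeq2 called it in the latter (adjusted p 0.0161), its 1 call in these lists. Without the cells with markers of other types the edgeR adjusted p against 3 dpci was 0.106. GADD45GIP1 had 71.6, 64.2, 73.9, 97.5 and 108 CPM and chchd1 56.6, 43.8, 62.2, 72.7 and 51.4 CPM.

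The tables held 23 assembly factors. The 9 that were tested all had fold changes above 0 in both comparisons, with medians of 0.89 and 0.96. Over all genes tested, 46.1% and 46.4% were above 0. The matrix protein C1QBP was the best counted, with 330 CPM at 1 dpci, 277 CPM at 3 dpci and 451, 633 and 532 CPM at 7 dpci, and a log2 fold change of 0.96 ± 0.37 against 3 dpci (adjusted p 0.250 in edgeR), or 0.66 without the cells with markers of other types. The RNA granule protein grsf1 had 87.9, 79.5, 144, 172 and 224 CPM, and malsu1, which keeps the subunits apart, 69.2, 78.4, 121, 126 and 112 CPM. In all 3 each 7 dpci plate was above both earlier plates. On the CPM scale 25.5% of all genes tested were higher on every 7 dpci plate than at 1 dpci, and 23.4% than at 3 dpci. Without the cells with markers of other types 7 of 10 tested assembly factors were above 0 in each comparison, with medians of 0.29 and 0.48. Of all genes tested in those cells, 45.8% and 47.5% were above 0.

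Many translation factors, tRNA charging genes and transcription genes were too low to test. Of 13 translation factors 5 were tested, with LRPPRC, which stabilises mitochondrial mRNAs, at 57.8, 33.6, 54.5, 56.8 and 36.7 CPM. TSFM, an elongation factor, had 14.4, 22.4, 42.8, 26.6 and 22.0 CPM. GFM1, another, had 31.9, 20.4, 3.89, 16.0 and 7.34 CPM, the only one of these factors named here with every 7 dpci plate under both earlier plates. It rested on 53, 20, 1, 9 and 4 UMIs. Its log2 fold changes were -1.70 ± 0.91 against 1 dpci and -1.06 ± 0.96 against 3 dpci (edgeR adjusted p 0.333 and 0.737). Of all genes tested, 37.2% were lower on every 7 dpci plate than at 1 dpci, and 33.4% than at 3 dpci. A list of tRNA charging genes held aminoacyl-tRNA synthetases and subunits of the amidotransferase that makes glutaminyl-tRNA. Of its 14 genes 3 were tested (the synthetases HARS2 and FARS2 and the amidotransferase subunit GATC), with 7 dpci plates on both sides of the 3 dpci plate in each. Of 11 transcription genes 6 were tested. The coactivator PPARGC1A had 39.1 CPM at 1 dpci, 85.6 CPM at 3 dpci and 124, 78.0 and 84.4 CPM at 7 dpci, with a log2 fold change of 1.27 ± 0.53 against 1 dpci (adjusted p 0.205 in edgeR), or 0.58 without the cells with markers of other types. TFAM, which packages mitochondrial DNA, had 24.7, 35.7, 77.8, 35.5 and 47.7 CPM, and tfb2m, needed to start transcription, 30.1, 50.9, 54.5, 60.3 and 34.9 CPM.

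The mRNAs that the mitoribosome translates were measured too, with the mitochondrially encoded genes kept in the totals. The share of the 13 mRNAs was 8.22% for 1 dpci, 6.34% for 3 dpci and 6.01%, 4.05% and 4.39% at 7 dpci, so the 7 dpci plates lay under both earlier plates. The direction against 3 dpci depended on the scaling, since on the TMM scale the median log2 fold change was 0.14, with 9 of 13 above 0, and against 1 dpci it was -0.16, with 4 of 13 above 0. None of the 13 was called in edgeR, the only tool run on them. At an unadjusted p under 0.05 there were 2 lower against 1 dpci, and 2 higher and 1 lower against 3 dpci. Of all genes tested in this fit, 9.75% were higher and 12.8% lower against 1 dpci, and 6.96% and 8.77% against 3 dpci. The lowest adjusted p was that of MT-CO1 (ENSDARG00000063905), the catalytic subunit of complex IV. It took 14618 UMIs per 1000000 at 1 dpci, 12585 at 3 dpci and 5921, 5837 and 5704 at 7 dpci, with a log2 fold change against 1 dpci of -0.76 ± 0.19 (adjusted p 0.0547). MT-ATP6 took 15695 UMIs per 1000000 at 1 dpci, 10607 at 3 dpci and 12626, 7866 and 8164 at 7 dpci, so its 7 dpci plates lay on both sides of the 3 dpci plate.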

How the data were processed

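The deposited tables hold estimated counts per gene and well: per the values, the authors' pipeline corrected UMIs for collisions among 4096 barcodes, and 99.7% to 99.9% of the values came out whole, to within 0.02, once this was undone. The reads were mapped to Zv9 per the methods, with BWA 0.6.2 per the submitters' processing notes. The annotation is not given in the sources used here. The authors also removed oversequenced reads, a step that could not be repeated. ERCC spike-ins, 13 mitochondrially encoded genes and 2 unnamed IDs that followed them were left out of totals. Symbols named 14285 of 17997 IDs. No doublet caller was run.

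The cells of a plate were added up per gene, the sums were rounded to whole numbers, and edgeR 4.0.16 in R 4.3.3 tested them (quasi-likelihood, two-sided, TMM, a mean of at least 10 counts per 1000000 or CPM, Benjamini-Hochberg, adjusted p under 0.05), with all 5 plates in 1 fit of 3 groups. The spread has 2 residual degrees of freedom, from the 7 dpci plates, and the lone plates were assumed to vary like them. The SE of an edgeR log2 fold change was derived from the test, as its absolute value divided by the square root of the F statistic. The common biological coefficient of variation was 41.15%. The plates held 1238048 (1 dpci), 783573 (3 dpci), 282325, 715133 and 657212 (7 dpci) UMIs, with TMM factors of 1.34, 1.25, 0.910, 0.788 and 0.829. On simulated counts with 4-fold changes the test recovered 26.6% of 184 changed genes for 7 against 1 dpci (5092 genes, 3 false calls) and 26.8% of 179 for 7 against 3 dpci (5070 genes, 5 false calls), so a gene that was not called may still have changed.

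The alternatives were library totals, DESeq2 1.42.0 size factors or test, other filters on counts and cells, cells thinned to 500 UMIs, mitochondrially encoded genes kept, and each 7 dpci plate left out. Named members are those called, the 10 of highest mean CPM, the 5 highest and 5 lowest fold changes of each tested comparison, and the 3 highest and 3 lowest ratios of 3 to 1 dpci among members with at least 20 UMIs on the 2 plates together. Genes of other lists are named where called or among the 3 highest of their list. The members and lists were chosen with earlier results of these data known.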

Additional observations from a re-analysis of the deposited data

How the results depend on the processing

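Depth limits the members: 10 CPM is 16.6 UMIs at 1 dpci but 2.57 on plate 1 of 7 dpci. With 1 member called for 7 against 1 dpci, 0 were called with library totals, with no filter on low counts, with a mean of at least 50 CPM, with cells of at least 1000 UMIs, with cells above 3 plate medians left out, without cells with markers of other types and with cells thinned to 500 UMIs. Leaving out 1 plate of 7 dpci gave 0 to 7 calls and a median of 0.51 to 0.69 for 7 against 1 dpci, and 0 to 6 calls and a median of 0.61 to 0.77 for 7 against 3 dpci. No other setting gave a call for 7 against 3 dpci. The members' median for 7 against 1 dpci was -0.16 with library totals, 0.28 at 50 CPM, 0.13 with cells above 3 plate medians left out, 0.089 without cells with markers of other types and 0.13 with thinned cells. For 7 against 3 dpci it was 0.064, 0.39 and 0.37 with library totals, without cells with markers of other types and with thinned cells. The median ratio of 3 to 1 dpci was -0.21, -0.44, -0.31 and -0.23 with library totals, with cells above 3 plate medians left out, without cells with markers of other types and with thinned cells. The member share at 1 dpci was 0.511%, 0.541% and 0.500% in the last 3 of these. Without cells with markers of other types it was 0.397% at 3 dpci and 0.388% at 7 dpci, and with mitochondrially encoded genes kept it was 0.349%, 0.301% and 0.340%. The cause of these differences was not tested.

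Fold changes of some named members that passed no test changed sign. For 7 against 1 dpci, library totals gave -0.62 for MRPL2, -0.16 for MRPL28, -0.37 for MRPL43, -0.59 for MRPS23 and -0.35 for MRPS34. Cells thinned to 500 UMIs gave -1.36 for MRPL2, -0.26 for MRPL28, 1.09 for MRPL49, -1.66 for MRPS23, -0.75 for MRPS34 and 0.42 for MRPS9. A mean of at least 50 CPM gave -0.32 for MRPL2, -0.088 for MRPL43 and -0.051 for MRPS34, and no filter -0.069 for MRPL2 and -0.047 for MRPS23. Without cells above 3 times the plate median the values were -0.45 for MRPL2, -0.43 for MRPL43, -0.017 for MRPS23 and -0.28 for MRPS34, and without cells with markers of other types -0.44 for MRPL2, -0.063 for MRPL28, -0.28 for MRPL43 and -0.24 for MRPS34. For 7 against 3 dpci, library totals gave -0.47 for MRPL12, -0.13 for MRPL2, -0.023 for MRPL28 and -0.49 for MRPL51. Thinned cells gave -0.67 for MRPL12, -0.44 for MRPL2, -0.073 for MRPL43, 0.28 for MRPL46, -0.18 for MRPL51, -0.21 for MRPS34 and 0.77 for MRPS9. MRPL12 had -0.16 at 50 CPM, -0.032 with no filter, -0.14 with cells above 3 plate medians left out and -0.17 without cells with markers of other types, and MRPL51 had -0.028 with no filter and -0.035 without cells with markers of other types. Leaving out 1 plate of 7 dpci ranged from -0.075 to 0.0045 for MRPL12, from -0.42 to 0.0011 for MRPL49 and from -0.30 to 0.28 for MRPS9 against 1 dpci, and from -0.52 to 0.11 for MRPL46, from -0.37 to 0.057 for MRPL49 and from -0.0094 to 0.23 for MRPL51 against 3 dpci. Over all genes, 160 were higher and 264 lower for 7 against 1 dpci and 38 and 69 for 7 against 3 dpci. The split was 53 and 466, and 12 and 108, with library totals, 221 and 175, and 119 and 82, with the DESeq2 test, 171 and 142, and 153 and 144, with cells above 3 plate medians left out, and 30 and 23, and 14 and 18, without cells with markers of other types. It was 146 and 544, and 52 and 256, with no filter, 98 and 180, and 18 and 45, at 50 CPM, 70 and 179, and 12 and 41, with cells of at least 1000 UMIs, and 115 and 236, and 45 and 125, with thinned cells. No paired analysis was possible because replicate numbers exist only at 7 dpci.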

Other observations

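Across the cells of 1 plate, the member share of a cell's UMIs and the share of nuclear OXPHOS subunit genes had a Spearman correlation of 0.39 for 1 dpci, 0.44 for 3 dpci and 0.12, 0.13 and 0.11 for the plates of 7 dpci. Without the cells with markers of other types these were 0.16, 0.30, 0.079, 0.11 and 0.086. With cytosolic ribosomal protein genes the correlation was between -0.11 and 0.06 on every plate. Cells of a plate share a library and the counts are sparse, so these values are descriptions. MRPS22, the member under the filter, was counted with 4 UMIs for 1 dpci, 1 for 3 dpci and 1, 3 and 4 for the plates of 7 dpci.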
